A study of Mus musculus with 4 samples.

Results

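The genes described here are 36 genes of S phase and DNA replication, taken as a list of gene symbols. All 36 were found by symbol among the 27998 genes of the deposited tables. They were followed across 6 marker-defined gates and 4 mouse libraries, in the 15755 barcodes with at least 1000 UMIs (unique molecular identifiers, each standing for a captured transcript) of which at most 10% came from mitochondrial genes.

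The libraries are titled as immune cells that infiltrated a tumour, labelled IgG, Ac, C or aC+C, with 1 library for each label. What Ac, C and aC+C stand for, their dose and their timing are named in none of the labels. The series title speaks of CD8+ T cells, whereas the source and cell type fields say goblet cells and the extraction text describes RedMUC298trTg reporter mice, and a genotype field gives an age of 6-8 weeks. In the gated cells Muc2 and Fcgbp, which define goblet cells, were at or near 0, while markers of T, NK, myeloid, fibroblast-like stromal and tumor-like cells were present, so the gates follow the markers. The labels name no strain, no tumour line and no number of animals per library.

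In S phase a cell copies its genome. The MCM proteins form the ring-shaped helicase that opens the double helix, CDC6 helps to load it, CDC45 and GINS switch it on, and the sliding clamp PCNA, put in place by replication factor C, holds the polymerases on the template. Transcription of most of these genes is under the E2F factors and rises from late G1, before the mitotic genes, and activated CD8 T cells are among the fastest dividing cells of the body.

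Promoter windows show a sequence feature that the choice of the list did not use. RefSeq windows (GRCm38.p6) of 300 bases, 250 before and 50 after the start, matched 29 members, and Mcm4, Gins2, Rfc2, Exo1, Usp1, Tipin and Esco2 were not matched. Searched on both strands, the E2F-type strings TTTCCCGC or TTTGGCGC stood in at least 1 window of 11 of the 29 members (37.9%), against 1.80% of all 27025 genes with a window. These were Mcm3, Mcm5, Mcm6, Mcm7, Cdc6, Cdca7, Dtl, Hells, Pola1, Casp8ap2 and 2810417H13Rik. The CCAAT box, searched on both strands, was found in 21 of the 29 (72.4%), against 41.1% of all genes. TTTGAA, a string of the late cell cycle element, was found in 5 of the 29 (17.2%), against 20.2% of all genes. Median GC was 60.3% in the members' windows and 52.7% in all windows, and a window matched for GC was not compared. A match is a description of letters and not a bound site. The sequences below, with the E2F-type strings in capitals, show 3 helicase genes, the clamp-binding 2810417H13Rik and, without either string, Fbxo5, a member that comes up again with the mitotic genes.
Mcm3, chr1:20820263-20820562, minus strand: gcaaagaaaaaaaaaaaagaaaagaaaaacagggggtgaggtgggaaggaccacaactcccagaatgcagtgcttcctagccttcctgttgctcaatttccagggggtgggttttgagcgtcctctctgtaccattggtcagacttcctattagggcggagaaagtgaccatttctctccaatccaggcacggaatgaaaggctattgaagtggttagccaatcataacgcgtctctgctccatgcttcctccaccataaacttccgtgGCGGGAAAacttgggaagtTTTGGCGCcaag
Mcm5, chr8:75109259-75109558, plus strand: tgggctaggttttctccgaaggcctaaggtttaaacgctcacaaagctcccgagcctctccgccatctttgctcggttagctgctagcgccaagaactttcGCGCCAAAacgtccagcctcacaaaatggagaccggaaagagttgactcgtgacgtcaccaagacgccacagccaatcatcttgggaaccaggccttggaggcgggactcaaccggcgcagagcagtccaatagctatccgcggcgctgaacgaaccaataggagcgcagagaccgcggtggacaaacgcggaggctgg
Mcm6, chr1:128359656-128359955, minus strand: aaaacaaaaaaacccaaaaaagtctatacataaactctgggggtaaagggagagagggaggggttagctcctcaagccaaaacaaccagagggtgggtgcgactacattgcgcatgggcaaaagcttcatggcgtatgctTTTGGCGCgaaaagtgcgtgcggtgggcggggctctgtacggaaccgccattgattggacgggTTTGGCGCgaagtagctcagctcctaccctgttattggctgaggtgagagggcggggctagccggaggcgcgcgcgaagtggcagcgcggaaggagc
2810417H13Rik, chr9:65890073-65890372, plus strand: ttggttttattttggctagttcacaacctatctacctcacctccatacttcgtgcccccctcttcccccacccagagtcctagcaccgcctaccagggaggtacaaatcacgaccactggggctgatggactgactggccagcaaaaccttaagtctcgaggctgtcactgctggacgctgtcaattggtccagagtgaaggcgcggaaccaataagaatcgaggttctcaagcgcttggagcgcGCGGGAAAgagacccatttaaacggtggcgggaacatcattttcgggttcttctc
Fbxo5, chr10:5805416-5805715, minus strand: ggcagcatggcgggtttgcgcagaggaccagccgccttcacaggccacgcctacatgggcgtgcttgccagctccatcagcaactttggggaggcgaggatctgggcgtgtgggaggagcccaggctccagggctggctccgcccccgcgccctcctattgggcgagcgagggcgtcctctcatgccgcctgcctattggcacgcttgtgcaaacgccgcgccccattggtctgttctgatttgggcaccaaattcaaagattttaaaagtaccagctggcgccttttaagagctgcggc
Mcm3 holds each of the strings, Mcm6 holds 2 copies, and in Mcm5 and 2810417H13Rik there is 1.

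Levels were computed by summing UMIs over a gate's cells and scaling to 1000000 UMIs (CPM), and sets of 4 values follow the order IgG, Ac, C, aC+C. The summed level of the 36 genes is called the module level, and a cell is called on when it holds at least 3 member UMIs after thinning to 1000 UMIs. Libraries held 61519049 to 75665201 UMIs and 3436 to 4210 cells, with medians of 10492 to 11594.5 UMIs per cell, and pairs of libraries shared 2 to 8 cell barcodes. With 1 library per label no test between labels exists, a difference between labels cannot be told apart from one between libraries, and all intervals (95%, exact) cover counting error only. Since UMIs are counted near transcript ends and capture differs between genes, levels were not ranked between genes.

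Of the 6 gates, the tumor-like cells carried the highest module level and the CD8 T cells the next highest. In the tumor-like gate the module level was 3435 CPM in IgG, and 3624, 3587 and 3213 CPM in the other libraries. CD8 T cells had 3045, 2838, 2831 and 3130. NK cells had 1904, 1555, 1771 and 1777. Lymphocyte gates thus lay between the tumor-like cells and the myeloid cells in every library. Foxp3 T cells, the regulatory T cells, had 2277, 1706, 1574 and 1583. Stromal cells had 1543, 1046, 841 and 1042, and myeloid cells had 622, 699, 702 and 538. Migratory dendritic cells, gated apart and with 28 to 62 cells a library, lay at 413 to 507. Stromal cells that fell between the stromal and the tumor-like gate, 8 to 48 a library, lay at 3741, 2183, 3605 and 2844. The free RNA of barcodes with 1 to 50 UMIs held 2000, 1884, 1673 and 2051 member CPM. This was above the myeloid and stromal levels in each library. It was also above the NK level except in C, and above the Foxp3 T level except in IgG. The part of free RNA in the gates' levels was not tested.

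**Figure D1:**
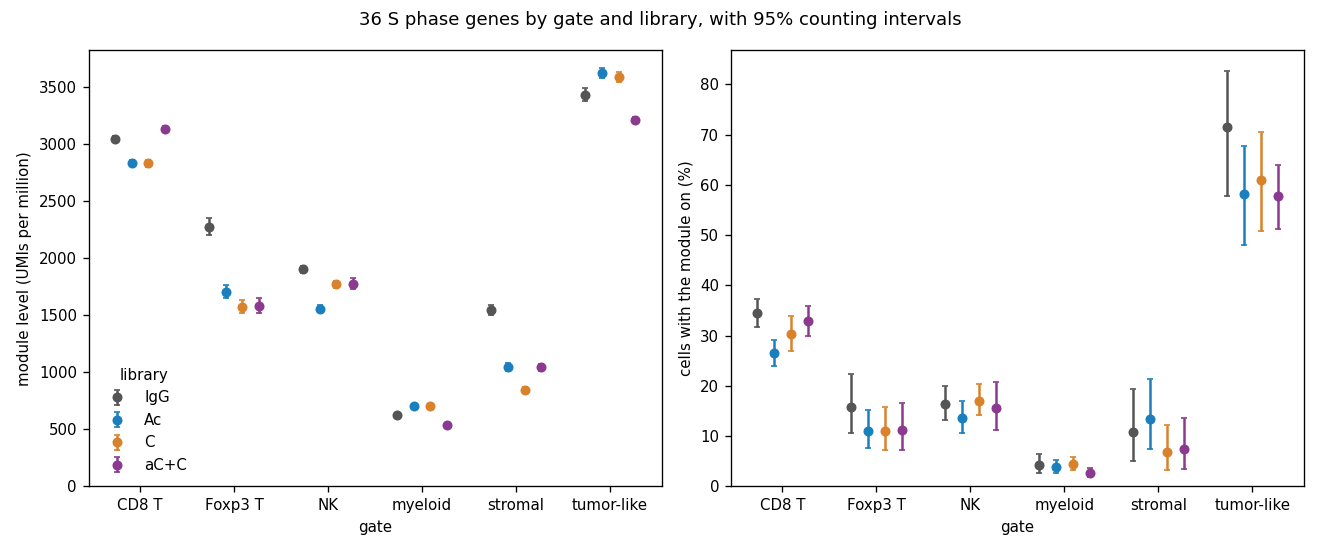
Module level in CPM and percent of cells with the module on, for the 6 gates and 4 libraries (points are single libraries, bars are 95% exact counting intervals). Tumor-like cells lie highest, from 3213 to 3624 CPM, and myeloid cells lowest, from 538 to 702.

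The share of cells that were on followed the same order for the top pair. Of CD8 T cells, 34.4% (31.6 to 37.2) of 1140 were on under IgG, 26.5% (24.0 to 29.1) of 1198 under Ac, 30.4% (27.0 to 33.9) of 718 under C and 32.8% (30.0 to 35.8) of 1026 under aC+C. The Clopper-Pearson interval of Ac lay below those of IgG and aC+C, and those of every other pair of libraries overlapped. With a call at 4 UMIs or the higher minimum per barcode given with the depth bands, the intervals of Ac and IgG overlapped. Of tumor-like cells, 71.4% of 56, 58.1% of 105, 61.0% of 100 and 57.7% of 246 were on, and averaged over all possible thinnings the IgG share was 57.5%. NK cells were on in 16.4%, 13.6%, 17.1% and 15.5%. Foxp3 T cells were on in 15.9%, 11%, 10.9% and 11.2%. Among myeloid cells the share was 4.30%, 3.80%, 4.37% and 2.65%, and stromal cells were on in 10.7%, 13.3%, 6.85% and 7.38%. Migratory dendritic cells, mature cells taken here as largely non-dividing, were on in 2 of 62, 1 of 61, 0 of 28 and 2 of 41 cells, where 0 of 28 allows a share of up to 10.7% by 3 counts of 28, and up to 12.3% by the exact interval. Median depth was 10898 to 13643.5 UMIs in CD8 T cells and 9486 to 11494 in myeloid cells. When cells over 50000 UMIs were left out, CD8 T cells had the higher share in Ac, at 26.2%, against 25% of the few tumor-like cells left.

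CD8 T cells made up over 50% of the cells with the module on in IgG and in Ac. Of all cells with the module on, the CD8 T gate held 52.9%, 51.8%, 32.5% and 47.5%. The tumor-like gate held 5.40%, 9.97%, 9.09% and 20%. These parts depend also on the number of cells captured per gate, which differed between libraries: the tumor-like gate had 56 cells in IgG and 246 in aC+C, and the CD8 T gate 718 cells in C.

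Within the CD8 T gate the members were spread unevenly over cells. The median cell held 11, 7, 9 and 9 of the 36 members, whereas cells that were on held a median of 26 or 27 and cells that were off 5 to 7. The median cell's module level was 1419, 924, 1279 and 1302 CPM, and that of the 90th percentile was 5908, 5925, 5654 and 5898. The upper end was thus alike between libraries and the middle of the distribution was lowest in Ac. Tumor-like cells held a median of 32 to 33 members, and myeloid cells 3 in each library. Depth moved with the state: CD8 T cells that were on had medians of 18617 to 19893.5 UMIs and those that were off 9208 to 11201.

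Member by member, the contrast between CD8 T and myeloid cells was broad. The module level was 4.89, 4.06, 4.03 and 5.81 times as high in CD8 T as in myeloid cells. At least 2 times higher were 35, 35, 34 and 35 of the 36 members, beside 19.6%, 18%, 17.1% and 18.5% of all genes compared. Over the 4 libraries the ratio was highest for Dut, which removes dUTP before it can enter DNA, at 15.8, then for Dtl, the adaptor of the ligase that destroys licensing proteins in S phase, at 13.8, and Cdca7 at 9.30. It was lowest for Casp8ap2 at 2.29, the loader subunit Rfc2 at 2.23 and the E2F repressor E2f8 at 1.59. Against NK cells the CD8 T level of the module was 1.60 to 1.82 times as high, with Esco2 and Fbxo5 at 2.38 each and Blm, a helicase of DNA repair, at 0.951. Against Foxp3 T cells it was 1.34 to 1.98 times as high.

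**Figure D2:**
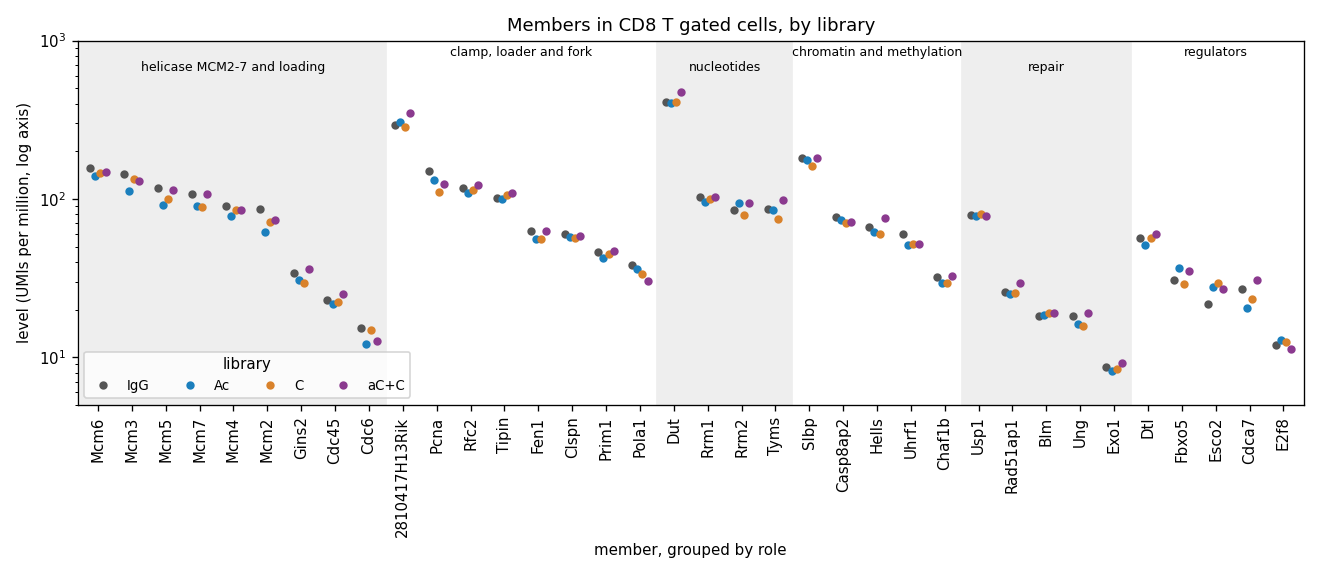
Level of each of the 36 members in the CD8 T gate, in CPM on a log axis, with 1 point per library and members grouped by role. The 4 libraries lie close together for most members, for Dut between 401 and 472 and for Exo1 between 8.18 and 9.16.

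The helicase genes were lower in the CD8 T cells of Ac than in those of IgG. Mcm2, a subunit of the ring, had 86.5 CPM in IgG and 62.2, 71.5 and 73.4 CPM in Ac, C and aC+C, and its ratio to IgG was 0.719 (0.665 to 0.778) in Ac. Mcm3 had 144, 111, 133 and 130, with a ratio of 0.775 (0.731 to 0.822) in Ac. Mcm5 had 118, 92.0, 100 and 113, with a ratio of 0.781 (0.731 to 0.833) in Ac. For these 3 genes IgG was the highest library and Ac the lowest. Mcm6 had 157, 139, 145 and 148 CPM and Mcm4 90.5, 77.9, 85.0 and 85.1, again highest in IgG and lowest in Ac. Mcm7 had 107, 90.3, 89.0 and 107, and was at 0.828 (0.768 to 0.892) of IgG in C. In C, Mcm2 was at 0.827 (0.760 to 0.899). Free RNA held Mcm2 at 69.3, 58.1, 55.7 and 69.6 CPM, lower in Ac and C than in the other libraries as well. It held Mcm3 at 65.8, 69.5, 58.7 and 79.2, where Ac was not the lowest. In IgG and Ac, free RNA held Mcm4 at 55.7 and 43.0 CPM, Mcm5 at 80.4 and 61.7 and Mcm6 at 105 and 86.9. These were lower in Ac too, whereas Mcm7 was at 58.3 and 64.0. The part of free RNA in these differences was not tested.

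The genes that load the helicase and switch it on did not share an order of libraries. Gins2, a subunit of GINS, had 34.0, 30.8, 29.6 and 36 CPM. Cdc45, its partner in the active helicase, had 22.9, 21.6, 22.3 and 25. Both were highest in aC+C, unlike the ring subunits. Cdc6, the loading factor, had 15.2, 12.1, 14.8 and 12.7 CPM, with ratios to IgG of 0.795 (0.661 to 0.954) in Ac and 0.837 (0.695 to 1.00) in aC+C.

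Among the clamp and fork genes, Pcna stood lowest in C. Pcna had 151, 131, 111 and 124 CPM, with ratios to IgG of 0.871, 0.735 and 0.824. In C, Pcna was also below IgG in Foxp3 T cells (0.683), NK cells (0.777) and myeloid cells (0.851), and free RNA held 119, 111, 92.2 and 95.6 CPM. Its near-identical copy Pcna-ps2 had 18 to 25 UMIs in the CD8 T gate, and reads could be split between them. 2810417H13Rik, which encodes the clamp-binding PCLAF, went another way: it had 293, 307, 285 and 349 CPM, with its highest level in aC+C at 1.19 (1.15 to 1.24) times IgG. Pola1, the catalytic subunit of the polymerase that starts new strands, had 38.3, 35.8, 33.4 and 30.1 CPM, with its lowest ratio in aC+C, at 0.785 (0.698 to 0.883).

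The other fork genes varied little between libraries. Rfc2, of the clamp loader, had 118, 110, 115 and 122 CPM. Tipin, of the fork protection complex, had 101, 99.6, 106 and 110, and was at 1.05 (0.976 to 1.13) of IgG in C. Clspn, which mediates the replication checkpoint, had 60.0, 57.5, 56.3 and 58.3. Their ratios to IgG in Ac were 0.931, 0.986 and 0.959, nearer to 1 than those of the MCM genes. Fen1, the flap endonuclease, had 62.2, 55.9, 55.8 and 62.3 CPM, and Prim1, a primase subunit, 46.1, 42.2, 44.9 and 46.9. These were lower in Ac and C than in IgG and aC+C.

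Of the nucleotide genes, Dut, Rrm2 and Tyms were above IgG in aC+C. Dut had 411, 401, 407 and 472 CPM, with ratios to IgG of 0.975 for Ac, 0.990 for C and 1.15 (1.11 to 1.18) for aC+C. Rrm2, the regulated subunit of ribonucleotide reductase, had 85.6, 94.4, 78.8 and 94.3. Its ratio in Ac was 1.10 (1.03 to 1.18), or 0.962 when each cell weighed the same. Free RNA held Rrm2 at 62.2, 69.9, 53.0 and 67.0 CPM, also highest in Ac. Tyms, which makes thymidylate, had 86.9, 85.0, 74.9 and 98.3. Rrm1, the partner of Rrm2, had 103, 95.4, 100 and 103, at 0.998 (0.934 to 1.07) of IgG in aC+C. C was the lowest library for both Rrm2 and Tyms.

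Of the regulators, Esco2 was above IgG in each of the other libraries. Esco2 acetylates cohesin so that sister chromatids stay joined, and it had 21.6, 27.6, 29.6 and 27.0 CPM, with ratios of 1.28 (1.12 to 1.46), 1.37 (1.18 to 1.58) and 1.247 (1.09 to 1.43). Free RNA held Esco2 at 16.6, 16.4, 15.2 and 15.6, with IgG the highest. Fbxo5, the inhibitor of the anaphase-promoting complex, had 30.7, 36.4, 29.0 and 34.8, and was at 1.18 (1.06 to 1.33) of IgG in Ac. Free RNA held Fbxo5 at 18.6, 23.9, 12.8 and 18.2 CPM, also highest in Ac. Cdca7, a chromatin factor, had 26.9, 20.3, 23.4 and 30.5, and was lowest in Ac at a ratio of 0.754 (0.656 to 0.866). Dtl had 56.3, 51.3, 56.9 and 60.1 CPM, and E2f8 12, 12.8, 12.4 and 11.3, with the 4 libraries close together.

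Genes that package and mark new chromatin followed no single order. Slbp, which binds histone mRNA, had 182, 177, 161 and 181 CPM, lowest in C. Casp8ap2, which takes part in histone gene expression, had 76.7, 73.7, 70.0 and 71.6. Uhrf1, which recruits the maintenance DNA methyltransferase, had 59.9, 50.9, 52.2 and 51.6, highest in IgG. Hells, a chromatin remodeller that works with Cdca7, was highest in aC+C, with 66.4, 61.7, 59.8 and 75.8 CPM. Chaf1b, of the histone chaperone CAF-1, had 31.9, 29.2, 29.6 and 32.4.

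Of the repair genes, Usp1 and Blm hardly varied. Usp1, a deubiquitinase acting on PCNA, had 78.9, 78.0, 80.0 and 78.1 CPM. Blm had 18.3, 18.3, 18.9 and 19.1, and stood at 1.04 (0.873 to 1.23) of IgG in C. Rad51ap1, which aids strand exchange, had 25.9, 25.1, 25.3 and 29.5. For Usp1 and Blm the intervals of all 3 ratios to IgG covered 1. Ung had 18.2, 16.2, 15.7 and 19.0 CPM, and the exonuclease Exo1 8.64, 8.18, 8.37 and 9.16.

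No member reached a 1.5-fold difference between IgG and any other library in CD8 T cells. In Ac, 0 of 36 members were higher and 0 lower by that fold, beside 0.988% and 5.75% of all genes tested (at least 100 UMIs over both libraries). In C the counts were 0 and 0 beside 1.47% and 1.58%, and in aC+C 0 and 0 beside 1.54% and 9.23%. The median member ratio was 0.930 in Ac, where that of all genes was 0.963, 0.933 in C beside 0.990, and 1.02 in aC+C beside 0.919. The 3 ratios share the IgG library. Counting intervals lay wholly below 1 for 14, 15 and 6 members and wholly above 1 for 4, 1 and 9. Such intervals were not computed for all genes, so these counts have no share of all genes beside them. Genes with many UMIs have narrow intervals, which leave out 1 at small differences. The module ratio was 0.932 (0.921 to 0.943) for Ac, 0.930 (0.917 to 0.942) for C and 1.03 (1.02 to 1.04) for aC+C. Scaled by median-of-ratios factors, which take the shift of all genes into account, the aC+C ratio was 1.10. When each cell weighed the same, the ratios were 0.849, 0.903 and 0.983, so aC+C lay on the other side of 1. Markers of other cells moved as well in the CD8 T gate: the myeloid list had 260, 152, 334 and 155 CPM and the migratory dendritic list 284, 91.6, 250 and 68.0. Holding the myeloid list under 1000 CPM in each lymphocyte gave a ratio of 0.919 in Ac and 0.914 in C.

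**Figure D3:**
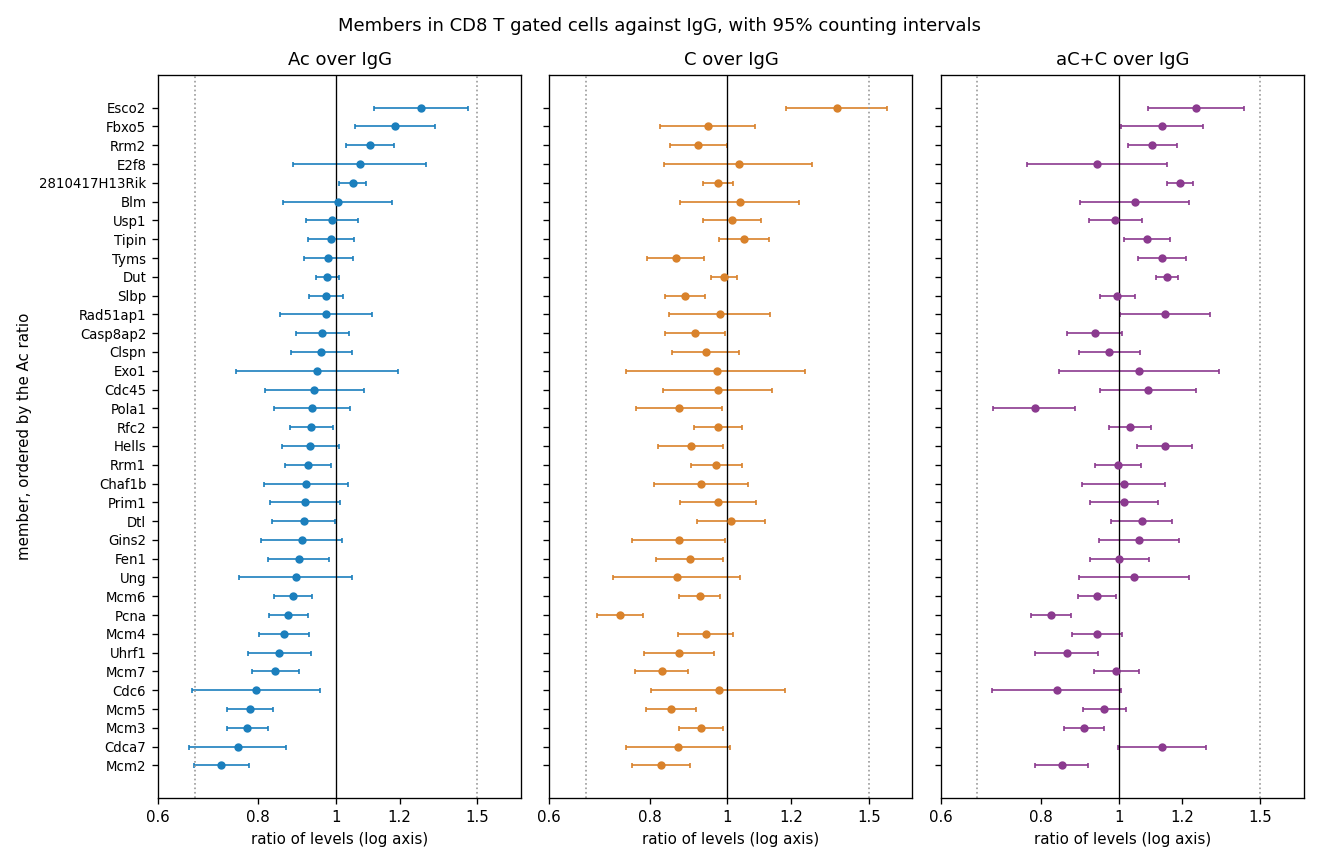
Ratio of each member's level to IgG in the CD8 T gate for Ac, C and aC+C (log axis, bars are 95% exact counting intervals, dotted lines mark 1.5 times higher and lower). Points run from 0.719 for Mcm2 to 1.28 for Esco2 in Ac, and none lies beyond a dotted line.

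The difference between Ac and IgG was uneven over cell depth. Among CD8 T cells of 1000 to 5000 UMIs the module level in Ac was 0.692 times that in IgG, and among those of 5000 to 10000 UMIs 0.722 times. It was 0.959 at 10000 to 20000 UMIs, 1.30 at 20000 to 40000 and 1.04 above. In C it lay below 1 in every band, from 0.886 to 0.992, and in aC+C it ran from 0.830 in the lowest band to 1.18 at 20000 to 40000. The shares of cells on showed the same turn, with 5.57% in Ac against 12.5% in IgG at 5000 to 10000 UMIs, and 68.9% against 55.4% at 20000 to 40000. When the minimum per barcode was raised to between 7962 and 9280 UMIs, the ratio over the gate was 1.02 in Ac, and the shares on were 38.4% in Ac and 39.4% in IgG.

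**Figure D4:**
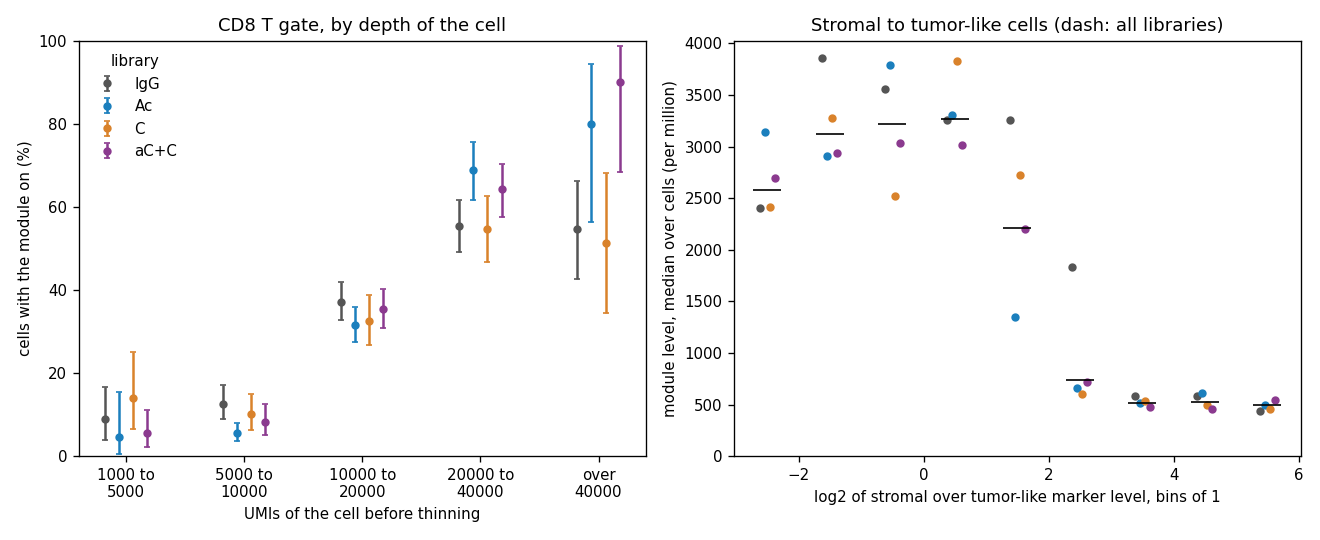
Left, percent of CD8 T cells with the module on against UMIs per cell for each library. Right, median module level over cells in CPM along the log2 ratio of stromal to tumor-like markers, where points are libraries and dashes all libraries together. In Ac the share runs from 4.55% at 1000 to 5000 UMIs to 80.0% above 40000, and in IgG from 8.89% to 54.7%.

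The mitotic genes, a separate list of 22 that includes Top2a, Ube2c and Birc5, did not follow the S phase genes across libraries. Their summed level in CD8 T cells was 1592, 1857, 1805 and 2280 CPM. The ratios to IgG were 1.17, 1.13 and 1.43, and all 22 genes lay above 1 in each comparison, with 11 at least 1.5 times higher in aC+C, beside 1.54% of all genes. The free RNA ratios of the mitotic list were 1.06, 0.980 and 1.34, those of the S phase genes 0.942, 0.837 and 1.03, and the part of free RNA was not tested. Of another 51 replication genes, among them Ssrp1, Nasp and Rpa2, the median ratios were 0.955, 0.976 and 0.981. By 1.5 times, 1 of the 51 was lower in Ac (E2f1), beside 5.75% of all genes, and in aC+C 1 was higher (Gins1) beside 1.54% and 1 lower (E2f7) beside 9.23%, shares of the list near or below those of all genes. The 11 cell cycle inhibitors, led by Btg1 and Btg2, had 9 genes tested with medians of 1.02, 0.899 and 0.795. At least 1.5 times lower were 1 of the 9 in Ac (Cdkn1a, which encodes p21) and 2 in aC+C (Cdkn1a and Btg2), beside the same 5.75% and 9.23%.

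In CD8 T cells the level of the mitotic list in CPM was higher, and that of the summed inhibitors lower, in cells that were on. The mitotic list was 2.06, 3.27, 2.84 and 1.81 times as high in on cells as in off cells, and the inhibitors were 0.723, 0.694, 0.718 and 0.656 times as high. The inhibitor sum is mostly Btg1 and Btg2, which with Cdkn1b were lower in on cells in each library, whereas Cdkn2c, Cdkn2d, Cdkn2a and Rb1 were higher. On average over libraries Btg1 stood at 0.599 and Cdkn2c at 1.64. Cells with both lists on made up 9.91%, 10.4%, 10.7% and 11.7% of the gate. Cells with the S phase genes alone made up 24.5%, 16%, 19.6% and 21.2%, and the mitotic genes alone 4.12%, 3.92%, 4.74% and 7.21%. The lower share of on cells in Ac thus lay among cells without the mitotic list. In tumor-like cells the mitotic list was lower in on cells than in off cells, at ratios of 0.754, 0.562, 0.782 and 0.855.

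The 36 members divided by how they stood to mitosis. With CD8 T cells split by whether the mitotic list was on, Esco2 was 6.82 times as high in mitotic cells (geometric mean of 4 libraries), Fbxo5 5.95, 2810417H13Rik 4.65, E2f8 4.4 and Rrm2 4.30. Mcm6 stood at 1.03, Mcm2 at 0.990, Cdca7 at 0.853 and Ung, the uracil glycosylase, at 0.432. NK cells gave a like order, with Esco2 at 16.5, E2f8 at 13.2 and 2810417H13Rik at 13 at the upper end and Cdca7 at 0.971 and Ung at 0.329 at the lower. Spearman's rho over the 36 members between the NK and CD8 T splits was 0.942, a description of genes read in the same 4 libraries. In tumor-like cells Fbxo5 (2.11) and Esco2 (1.77) led again, while Gins2 (0.520), Cdc6 (0.384) and Ung (0.204) were lower in mitotic cells. Beside the library ratios, Esco2, Fbxo5 and Rrm2, the 3 members highest in the CD8 T cells of Ac over IgG, are from the upper end of this order, and Mcm2 and Cdca7, 2 of the 3 lowest, from the other. Over all 36 members, Spearman's rho between the CD8 T mitotic split and the ratio to IgG was 0.692 for Ac, 0.467 for C and 0.338 for aC+C, again a description of genes from shared libraries.

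**Figure D5:**
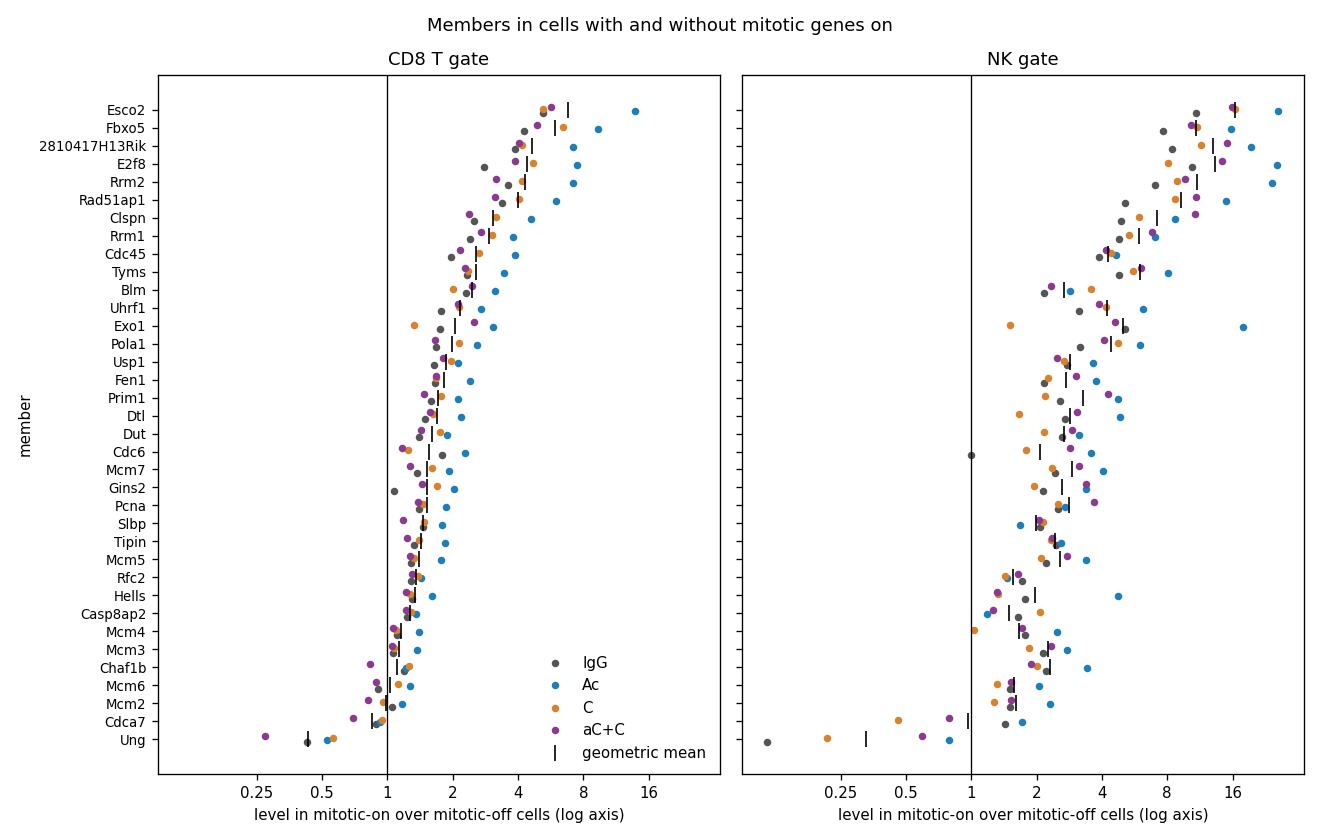
Level of each member in cells with the mitotic list on over cells with it off, for the CD8 T and NK gates (log axis; points are libraries and bars their geometric mean). The geometric mean of Esco2 lies at 6.82 in CD8 T and 16.5 in NK cells, and Ung at 0.432 and 0.329.

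In NK cells the module level over the gate was below IgG in the other 3 libraries. The module ratio was 0.817 (0.796 to 0.838) for Ac, 0.930 (0.908 to 0.952) for C and 0.933 (0.904 to 0.963) for aC+C. Within the bands of depth from 5000 to 40000 UMIs, C stood at 1.32, 1.06 and 1.16 times IgG. There aC+C stood at 1.10, 1.30 and 1.03, and Ac at 0.979, 0.733 and 1.03. The outer bands lay below IgG in Ac, C and aC+C, at 0.797, 0.681 and 0.714 for 1000 to 5000 UMIs. Above 40000 UMIs the ratios were 0.442, 0.521 and 0.772, with 16 cells in IgG and 6 to 8 in the others. With the higher minimum per barcode the aC+C ratio was 1.03. In Ac, 0 of 34 members tested were at least 1.5 times higher and 4 lower, beside 0.613% and 1.59% of all genes. These were Rrm2, Cdc6, Fbxo5 and 2810417H13Rik, with Fbxo5 at 0.520 (0.378 to 0.708), Cdc6 at 0.525 (0.332 to 0.812) and Rrm2 at 0.606 (0.515 to 0.711). The highest ratios in Ac were those of Blm (1.06), Ung (1.05) and Mcm6 (0.991). In C they were those of Ung (1.29), Cdca7 (1.12) and Tipin (1.11), and the lowest those of 2810417H13Rik (0.717), Fbxo5 (0.753) and Pcna (0.777). The intervals of the 3 highest covered 1 in each library. In aC+C Blm (1.28), Rad51ap1 (1.27) and Ung (1.11) were highest and Gins2 (0.677), Mcm7 (0.714) and Pola1 (0.718) lowest. At least 1.5 times higher or lower in C were 0 and 0 of 34 beside 1.31% and 0.967%, and in aC+C 0 and 0 of 33 beside 1.69% and 3.29%. Rrm2 and Fbxo5 were thus lower in NK cells of Ac and higher in its CD8 T cells (Rrm2 not when each cell weighed the same, at 0.962), and the difference between the gates was not tested. The mitotic list had ratios of 0.840, 1.05 and 1.57 in NK cells. Dut had 238, 188, 225 and 216 CPM in this gate, 2810417H13Rik 171, 110, 122 and 182, and Slbp 141, 133, 147 and 149. Of these 3, 2810417H13Rik had the widest spread, and Mcm6 (101 to 106 CPM) and Rfc2 (93.5 to 105) hardly varied.

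Foxp3 T cells had their highest module level over the gate in IgG, but not within each band of depth. The ratios were 0.749 (0.716 to 0.784) for Ac, 0.691 (0.659 to 0.724) for C and 0.695 (0.659 to 0.732) for aC+C. Among cells of 1000 to 5000 UMIs they were 0.884, 1.03 and 1.00. Among cells of 5000 to 10000 UMIs they were 1.08, 1.36 and 1.39, and at 10000 to 20000 UMIs 1.7, 1.04 and 1.08. At 20000 to 40000 UMIs they were 1.04, 0.463 and 0.890, with 18 cells in IgG and 10 or 11 in the others. Above 40000 UMIs C stood at 0.601, with 4 cells in IgG and 5 in C, and Ac and aC+C had 0 cells. With the higher minimum per barcode the ratio over the gate was 1.10 in Ac. Of 24 members tested in Ac, 0 were at least 1.5 times higher and 7 lower, beside 3.03% and 4.35% of all genes. In C, 0 were higher and 10 of 24 lower beside 1.75% and 2.74%, and in aC+C 0 were higher and 10 of 21 lower beside 2.58% and 5.56%. Mcm3 was lowest in Ac and C, at 0.440 and 0.459 of IgG, and stood at 0.534 in aC+C, with 124 CPM in IgG and 54.4 to 66.1 in the others, and Mcm2 stood at 0.613, 0.564 and 0.467, the lowest in aC+C. Mcm7 was at 0.486 in Ac and 0.518 in C, Uhrf1 at 0.522 in Ac and 0.482 in aC+C, and Rrm2 at 0.511 in C and 0.509 in aC+C. Casp8ap2 (1.13, 0.849 and 1.07) and Rfc2 (1.05, 0.932 and 0.943) were among the 3 highest in each library, with Slbp in Ac (0.946), Dut in C (0.830) and Hells in aC+C (0.991). MCM genes were thus among the 3 lowest in each library and among the 3 highest in none. Dut had 218, 158, 181 and 181 CPM in this gate, 2810417H13Rik 202, 152, 165 and 153, and Slbp 147, 139, 114 and 128. Mcm6 had 128, 107, 84.9 and 108 and Pcna 108, 98.9, 73.6 and 77.5, so that IgG was the highest library for all 5. The gate is small, with 164 cells in IgG, of which 1 cell gave 9.07% of the module's UMIs. Cells were deeper in IgG, with a median of 7051 UMIs against 5130 to 5396.5, NK markers differed (159, 22.9, 252 and 59.7 CPM), and the part of the markers was not tested.

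Myeloid cells showed small levels, which over the gate were higher in Ac and C. The module ratio was 1.12 (1.08 to 1.17) for Ac, 1.13 (1.08 to 1.17) for C and 0.865 (0.832 to 0.901) for aC+C. The median cell lay the other way, with 393, 369, 377 and 338 CPM. Within the bands from 5000 to 40000 UMIs, Ac stood at 0.917, 0.834 and 0.990 times IgG and C at 0.911, 0.999 and 1.23. Cells of 20000 to 40000 UMIs numbered 40 in IgG, 192 in Ac and 115 in C. At least 1.5 times higher were 5 of 27 members in Ac (Tyms, Rrm2, Clspn, Chaf1b and 2810417H13Rik) and 0 lower, beside 2.96% and 1.85% of all genes. In C they were 5 of 28 (Tyms, Rrm2, Rad51ap1, Prim1 and 2810417H13Rik) and 0 lower, beside 2.73% and 2.21%. In aC+C 0 of 27 were higher and 4 lower, the helicase genes Mcm2, Mcm3, Mcm5 and Mcm7, beside 3.42% and 2.72%. The ratio of 2810417H13Rik was 2.15 (1.79 to 2.59) in Ac and 1.77 (1.47 to 2.14) in C, that of Rrm2 1.95 and 2.48, and that of Tyms 1.87 and 2.12. Lowest in Ac were Mcm2 (0.924), Slbp (0.935) and Mcm7 (0.948), and in C Mcm2 (0.733), Pola1 (0.772) and Blm (0.789). In aC+C Tyms (1.43), Chaf1b (1.35) and Rrm2 (1.28) were highest, and Mcm2 (0.564), Mcm7 (0.616) and Mcm3 (0.636) lowest. Slbp had 64.1, 59.9, 59.7 and 57.5 CPM in this gate, Pcna 58.4, 57.5, 49.7 and 50.1, Rfc2 48.6, 51.4, 58.6 and 49.3, and Mcm3 38.3, 38.9, 42.5 and 24.4. Of these only Rfc2 and Mcm3 had a level above IgG in Ac and C. 2810417H13Rik had 25.8, 55.3, 45.6 and 32.5 CPM and Rrm2 6.81, 13.3, 16.9 and 8.73, each lowest in IgG. These levels are below those of the same genes in free RNA, where Rrm2 had 53.0 to 69.9 CPM. The mitotic list was 2.28, 1.65 and 1.65 times its level in IgG.

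Tumor-like and stromal cells, both gated as low in the leukocyte gene Ptprc, differed widely in the module. The tumor-like gate rests on Hmga2, Tm4sf1, Krt8 and Krt18, and Krt18 was at 0.254 to 3.94 CPM, so the name stands for those genes only. The stromal marker list stood at 10693, 7813, 8395 and 8898 CPM in stromal cells. The tumor-like gate held this list too, at 943, 1213, 1176 and 1090 CPM. Its module level was 2.23, 3.46, 4.26 and 3.08 times that of stromal cells, with 26 of 34, 34, 34 and 32 of 36 members at least 2 times higher, beside 7.28%, 9.03%, 10.1% and 7.77% of all genes compared. Beside CD8 T cells it was 1.13, 1.28, 1.27 and 1.03 times as high, with Gins2 at 2.52, E2f8 at 2.48 and Cdca7 at 2.43 and Casp8ap2 at 0.649. Cells were ordered by the log2 ratio of stromal to tumor-like markers, which uses no member. Stromal and tumor-like markers also set the gates, so this order is not independent of them. Along this order the median cell's module level over all libraries was 499 to 528 CPM in the 3 bins nearest the stromal end and 3120 to 3270 in the 3 highest bins. Median depth was 69170 to 77104 UMIs in tumor-like and 30757.5 to 35163 in stromal cells. The module ratios to IgG were 0.678, 0.545 and 0.676 in stromal and 1.06, 1.04 and 0.935 in tumor-like cells, where IgG had 84 and 56 cells. Tumor-like cells had Dut at 422, 426, 423 and 434 CPM, 2810417H13Rik at 407, 396, 370 and 317 and Slbp at 172, 178, 173 and 149. Mcm3 had 138, 146, 150 and 123 there and Rrm2 144, 131, 148 and 131, so that Dut was the steadiest of the 5. In stromal cells Dut had 205, 172, 117 and 167 CPM, Slbp 124, 118, 95.3 and 99.4, and 2810417H13Rik 148, 79.4, 39.2 and 48.4. Mcm6 had 56.2, 40.4, 48.7 and 51.3 and Pcna 66.8, 42.2, 36.6 and 47.0, with IgG the highest stromal library for all 5. A single stromal cell of IgG held 12.2% of that gate's module UMIs. The median stromal cell's module level was 575, 561, 503 and 522 CPM, closer between libraries than the summed level.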

How the data were processed

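Single-cell gene expression was read from the deposited matrices, which hold UMI counts per gene and barcode, and from their barcode and gene name lists (names, not measurements), as the authors deposited them. Per the submitters' processing notes the files were made with Cell Ranger 2.1.1 on mm10, while the matrix header gives software 3.0.2; each barcode list has 6794880 entries, and a target of about 5000 cells is stated per the labels. Members and gene lists were chosen with earlier results of these data known. Gates were set on summed marker UMIs per 1000000 UMIs (CPM), at 500 for T, 300 for CD8, NK and tumor-like, 3000 for myeloid, 1000 for stromal and migratory dendritic and 50 for Foxp3, after the data and the module's values were seen; barcodes of several lineages were left ungated, and no doublet caller was used in the reported values. Cells were thinned without replacement (seed 11). Ratios compare summed UMIs, tested genes having at least 100 UMIs over both libraries, with 95% exact conditional binomial intervals; levels have exact Poisson and shares Clopper-Pearson intervals. No p-value was computed, since each label has 1 library. No correction for free RNA was made. Among the named genes are members with the highest and lowest ratios to IgG and members at least 1.5 times higher or lower. In the CD8 T gate every member is named by role, and in the other gates some further members are named. Ratios of aC+C to Ac and to C were computed too and are not listed here. Known ratios were recovered from simulated summed counts. Those counts held no variation between cells and no small gates, so the recovery does not cover either. Python 3.11.15, numpy 2.4.6, scipy 1.17.1, pandas 2.3.3 and scanpy 1.11.5 were used.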

Additional observations from a re-analysis of the deposited data

Results flagged for a closer look

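The S phase genes' difference from IgG was not alike between gates. In CD8 T cells the module ratio was 0.932 for Ac, 0.930 for C and 1.03 for aC+C. In Foxp3 T cells it was 0.749, 0.691 and 0.695, and in NK cells 0.817, 0.930 and 0.933. In myeloid cells it was 1.12, 1.13 and 0.865. In Ac and C the 3 lymphocyte gates were below IgG and the myeloid gate above it, and in aC+C the CD8 T gate was above IgG and the others below. Within bands of cell depth these signs did not hold throughout. In Ac, myeloid cells stood at 0.917, 0.834 and 0.990 of IgG in the bands from 5000 to 40000 UMIs. At 1000 to 5000 UMIs myeloid cells of Ac stood at 1.11, and above 40000 at 3.49 with 4 cells beside 1 in IgG. CD8 T cells of Ac stood at 1.30 at 20000 to 40000, and its Foxp3 T cells at 1.7 at 10000 to 20000. In C, NK cells stood at 1.32, 1.06 and 1.16 from 5000 to 40000, but at 0.681 from 1000 to 5000 and 0.521 above 40000. In aC+C, CD8 T cells stood at 0.830, 0.984 and 0.984 in the bands below 20000 UMIs and at 1.18 and 1.08 above. Averaged over cells, their module level was 2380 CPM in aC+C and 2422 CPM in IgG. NK cells of aC+C stood at 1.10, 1.30 and 1.03 from 5000 to 40000, but at 0.714 and 0.772 in the outer bands. Its Foxp3 T cells stood at 1.00, 1.39, 1.08 and 0.890 in the bands up to 40000. What draws attention is the opposite sign between gates over all their cells, with a single library each, and the differences between gates were not tested.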

How the results depend on the processing

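With 1 library per label, no library could be left out and no paired analysis was possible because the labels hold no replicates. Of 193 recomputed values of the CD8 T shares, ratios and counts, 152 stayed within their counting interval or 1.5 times the count, 39 moved and 2 crossed 1; the cause of a move was not tested. A higher minimum per barcode (10% of the 99th percentile) gave shares on of 39.4%, 38.4%, 41.5% and 48.1% in the order IgG, Ac, C, aC+C, and ratios of 1.02, 0.960 and 1.08. It also gave 1.10 for Foxp3 T cells in Ac and 1.03 for NK cells in aC+C. A call at 2 UMIs gave shares of 50.9%, 40.7%, 41.8% and 47.4%, and at 4 UMIs 24.3%, 19.9%, 20.9% and 23.6%. Without thinning they were 30.4% in IgG, 22.3% in Ac and 25.1% in C. At 5% mitochondrial UMIs the shares were 37.2% in IgG and 36.3% in aC+C, and the C ratio 0.944. When each cell weighed the same the ratios were 0.849, 0.903 and 0.983, 1 member was at least 1.5 times lower in Ac, and Rrm2 and 2810417H13Rik in Ac were at 0.962 and 0.923. Leaving out cells over 50000 UMIs gave 0.958 in Ac and 1.07 in aC+C, and median-of-ratios scaling 0.962 and 1.10. Halved gate minimums gave 0.919 in Ac and 0.906 in C, and doubled ones 0.959 in C. At a smaller fold, 1 member was higher and 5 lower in Ac, 1 and 1 in C, and 1 lower in aC+C. No share of all genes is given for these counts or for the 1 member under equal cell weights. They are not read as results about the members. Chosen after seeing the data, thinning to 3000 UMIs with at least 9 gave 31.1% in IgG and 26.5% in C, and myeloid markers under 1000 CPM gave ratios of 0.919 in Ac and 0.914 in C. The mitotic list of NK cells in C was at 0.997 with 5% mitochondrial UMIs, 0.970 with halved gates and 0.980 with fewer myeloid markers. Depth limits the small gates most: the tumor-like gate of IgG had 56 cells.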
